A study of Homo sapiens with 6 samples.

Results

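A set of 10 genes of the unfolded protein response (UPR) and of endoplasmic reticulum (ER)-associated degradation (ERAD) was followed by RNA sequencing after knockdown of RPL13, a protein of the large ribosomal subunit. They are the sensor genes ERN1, ATF6 and EIF2AK3, the transcription factor gene XBP1, the ERAD genes HERPUD1, SEL1L, SYVN1, DERL1 and EDEM1, and UFM1, a ubiquitin-like modifier. Each was taken by its Ensembl identifier from the deposited table of 21429 genes. All 10 were found, and all 10 were among the 15327 genes with a mean value of at least 3 that were tested.

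The cells were U251, an established human glioma line, with stable and doxycycline-inducible expression of amyloid precursor protein (APP) carrying the K670N and M671L substitutions. One group of 3 libraries received an siRNA against RPL13 (siRPL13) and the other 3 a control siRNA (siNC), both by electroporation. Both groups carried the mutant APP and received doxycycline at 1 µg/mL with fresh medium 24 h after electroporation and were harvested at 72 h. The labels describe biological replicates without saying how the cultures were separated or whether the line is a single clone. Values are regularized-log (rlog) values, which are read counts scaled for library size, put on the log2 scale and pulled towards each gene's mean, so that the differences of low genes are understated. Read depth per library is unknown.

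The ER folds proteins that enter the secretory pathway, and its lumen is watched by membrane sensors. ERN1 (IRE1) is a kinase and endoribonuclease that splices XBP1 mRNA, ATF6 is a membrane-bound transcription factor released by proteases in the Golgi, and EIF2AK3 (PERK) phosphorylates the initiation factor eIF2 alpha and so lowers translation. The spliced XBP1 protein and cleaved ATF6 are known to raise the genes of folding and of ERAD, in which misfolded proteins are recognised, moved back across the ER membrane, ubiquitinated and passed to the proteasome.

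Promoters are shown first because cleaved ATF6 and spliced XBP1 are known to act through short elements near the start of their targets. RefSeq windows on GRCh38.p14 were found for 9 of the 10 genes, all but DERL1, with a further window for XBP1. The 250 bases before each start were searched on both strands for the ER stress element ERSE (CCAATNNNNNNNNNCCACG), ERSE-II (ATTGG and CCACG with 1 base between them), the UPR element UPRE (TGACGTGG), its core ACGTGG and the amino acid response element CARE (TGATGCAAT). ERSE lay in 1 gene, XBP1, from 52 to 34 bases before the start, and in 0.074% of all 35116 windows. ERSE-II lay in 1 gene, HERPUD1, from 117 to 107 bases before the start, and in 0.0513% of windows. The ACGTGG core lay in HERPUD1, SYVN1 and UFM1 and in 8.37% of windows, and 1 of its 2 copies in HERPUD1 overlaps the ERSE-II. The exact letters of UPRE and CARE matched in 0 of the 9 genes, against 0.612% and 0.216% of windows. Other spellings of CARE were not searched. The HERPUD1 stretch below holds gttgcatca, which on the opposite strand differs from the CARE letters only in its last base.
The 4 genes with a match are shown, chosen for that match. Of these, XBP1, HERPUD1 and SYVN1 fell and UFM1 rose, as defined below. EDEM1, which fell, and the sensor genes and SEL1L, which did not pass, had none of these letters in their windows. The stretches upstream of any annotated transcript of the gene itself are given 5′ to 3′ on the strand of the gene. Capitals mark the ERSE of XBP1, the ERSE-II of HERPUD1 and the core (read on the opposite strand in SYVN1) of SYVN1 and UFM1. The XBP1 stretch overlaps an annotated exon of another gene, Z93930.2. The 4 stretches lie at chr22:28800598-28800819 (minus strand), chr16:56931892-56932047 (plus strand), chr11:65134534-65134769 (minus strand) and chr13:38349601-38349848 (plus strand).
XBP1: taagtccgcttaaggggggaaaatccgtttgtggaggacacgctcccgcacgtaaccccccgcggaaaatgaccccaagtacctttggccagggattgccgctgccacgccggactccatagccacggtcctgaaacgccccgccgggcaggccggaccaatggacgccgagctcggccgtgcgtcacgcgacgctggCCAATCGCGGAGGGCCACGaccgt
HERPUD1: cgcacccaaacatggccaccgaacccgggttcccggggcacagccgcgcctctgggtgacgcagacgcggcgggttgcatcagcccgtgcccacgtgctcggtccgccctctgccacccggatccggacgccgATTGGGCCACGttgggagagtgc
SYVN1: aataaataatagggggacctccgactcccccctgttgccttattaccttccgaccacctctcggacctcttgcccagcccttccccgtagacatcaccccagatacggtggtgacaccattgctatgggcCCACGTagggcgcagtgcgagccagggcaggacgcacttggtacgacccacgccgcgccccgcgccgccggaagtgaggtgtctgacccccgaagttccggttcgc
UFM1: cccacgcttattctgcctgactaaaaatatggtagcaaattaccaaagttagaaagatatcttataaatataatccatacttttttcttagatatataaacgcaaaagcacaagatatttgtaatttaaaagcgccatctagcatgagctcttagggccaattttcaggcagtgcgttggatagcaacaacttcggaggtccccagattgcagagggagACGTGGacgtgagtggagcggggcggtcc
These matches are letters in a window and say nothing of whether a factor was bound in these cells.

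RPL13 itself was read first. Its rlog values were 13.03, 13.12 and 14.09 in siRPL13 replicates 1 to 3, against 14.05, 14.16 and 14.18 in siNC. The targeted transcript was thus within the siNC range in the library labelled siRPL13 replicate 3, and every result is given with that library (6 libraries) and without it (5 libraries). "Rose" and "fell" mean an adjusted p under 0.05 by limma (Benjamini-Hochberg over every gene tested) in the comparison of 5 libraries. That comparison rests on 2 siRPL13 libraries. Of the glioma and astrocyte markers GFAP lay between 14.73 and 15.50 and VIM between 15.90 and 16.33 in all libraries, while the leukocyte markers ITGAM and CD68 were at or below 0.40. The astrocyte enzyme ALDH1L1 was at or below 0.85. The sum of the 9 astrocyte and glioma markers on the linear scale was 181177 to 192636 in siRPL13 and 201642 to 234692 in siNC. This sum was carried mostly by VIM, CD44, GFAP and NES. GFAP, VIM and NES were lower in each siRPL13 library than in siNC, whereas CD44, SOX2, SOX9, SLC1A3, S100B and ALDH1L1 overlapped between the groups. The part of this sum in the results below was not tested. Of 4 endothelial markers 3 had a mean of at least 5, with KDR between 11.75 and 12.06, and their sum, carried by KDR, overlapped between the groups (3677 to 4371 in siRPL13 and 3573 to 3959 in siNC). The endothelial cadherin CDH5 was lower in each siRPL13 library (5.84, 5.99 and 6.25) than in siNC (6.43, 6.41 and 6.30). KDR went the other way in siRPL13 replicates 1 and 2. It stood at 12.04, 12.06 and 11.80 in siRPL13 and at 11.90, 11.75 and 11.86 in siNC. KDR, VWF and CLDN5 each overlapped between the groups. Of 5 neuronal markers 4 had a mean of at least 5, with MAP2 between 10.32 and 10.66, and their sum was 1909 to 2214 in siRPL13 and 1900 to 2170 in siNC. The part of these markers in the results was not tested either.

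The main finding among the 10 genes was lower XBP1 and HERPUD1 in the siRPL13 libraries in which RPL13 was low, smaller falls of SYVN1, DERL1 and EDEM1, and a rise of UFM1. Without the library labelled siRPL13 replicate 3, 5 of the 10 genes fell, where 10.7% of all genes tested fell, and 1 rose, where 8.42% rose (19.1% in either direction). The same 6 genes were those whose siRPL13 and siNC values did not overlap among the 5 libraries, 5 below siNC, where 26.6% of all genes lay, and 1 above, where 24.7% lay. They were also the 6 with an unadjusted p under 0.05, against 33.4% of all genes, of which 17.6% were lower. The 3 sensor genes and SEL1L did not pass. With all 6 libraries 0 of the 10 genes passed, as did 0 of all genes tested (0%), and the smallest adjusted p was 0.589 (limma). At an unadjusted p under 0.05 in that fit, 4 of the 10 (XBP1, HERPUD1, DERL1 and EDEM1) and 8.32% of all genes differed, and all 4 were lower, against 4.4% of all genes. The median difference of the 10 genes was -0.10 on the log2 scale without that library and -0.09 with it, against 0.00 over all genes tested in both (-0.0014 and -0.0008). Because the values come from whole cultures, fewer cells making a transcript and less of it per cell cannot be told apart.

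**Figure D1:**
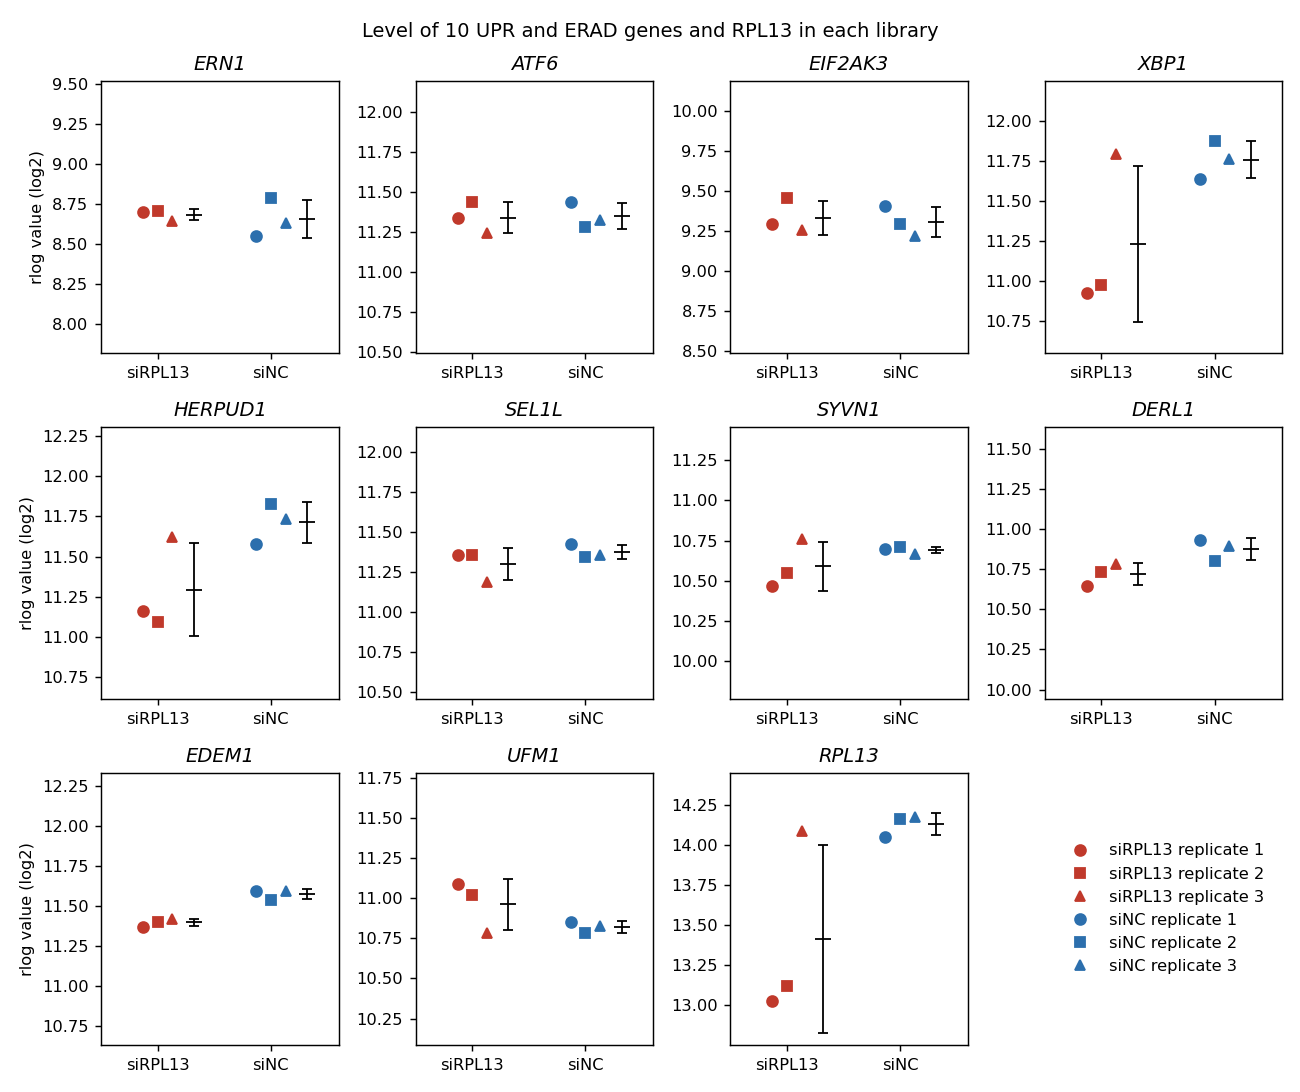
Level of the 10 genes and RPL13 as rlog values (vertical axes, log2, not starting at 0, each spanning the same range), with 1 point per library, siRPL13 in red and siNC in blue, the shape giving the replicate number, and bars showing mean ± SD (n = 3). The siRPL13 points of XBP1 are 10.92, 10.97 and 11.79 for replicates 1 to 3, whereas the 3 siRPL13 points of EDEM1 all lie below its siNC points.

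The sensor genes did not pass. In GRCh38 (GENCODE 29) ERN1 spans chr17:64039142-64130819 (minus strand), ATF6 chr1:161766294-161964070 (plus) and EIF2AK3 chr2:88556741-88627576 (minus). ERN1 stood at 8.70, 8.71 and 8.64 in siRPL13 replicates 1 to 3 and at 8.55, 8.79 and 8.63 in siNC, so that every siRPL13 value lay inside the siNC range. Its difference was 0.05 ± 0.08 (SE, log2) without the library labelled siRPL13 replicate 3, with a 95% interval from -0.13 to 0.23 and an adjusted p of 0.703 (limma), and it was 0.03 ± 0.08 with all 6 libraries. ATF6 stood at 11.34, 11.44 and 11.25 in siRPL13 and at 11.44, 11.29 and 11.33 in siNC. These groups overlapped, and the lowest value was that of the library labelled siRPL13 replicate 3. The difference of ATF6 was 0.04 ± 0.06, with an interval from -0.10 to 0.17 and an adjusted p of 0.702 (limma), and it was -0.01 ± 0.07 with all 6 libraries. EIF2AK3 stood at 9.29, 9.45 and 9.25 in siRPL13 and at 9.41, 9.29 and 9.22 in siNC, again with overlap, and its difference was 0.07 ± 0.08, from -0.10 to 0.24 (adjusted p 0.572, limma), and 0.03 ± 0.08 with all 6 libraries. Differences of the sensor mRNAs within these intervals were not detectable with these libraries, and mRNA levels do not measure activation of the sensor proteins. In GENCODE 29 an antisense transcript, AC104134.1, covers 14.4% of the exon bases of EIF2AK3. No source used here says whether the counting used strand, so its reads cannot be told apart from those of EIF2AK3.

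XBP1 (chr22:28794555-28800597, minus strand) had the largest difference of the 10 genes. It stood at 10.92, 10.97 and 11.79 in siRPL13 replicates 1 to 3, against 11.64, 11.87 and 11.76 in siNC. The values of siRPL13 replicates 1 and 2 lay below every siNC value, while the library labelled siRPL13 replicate 3 lay inside the siNC range, as it did for RPL13. Without that library XBP1 fell by 0.81 ± 0.07 (SE, log2), to 57.1% of siNC on the rlog scale, with an adjusted p of 0.000139 (limma). With all 6 libraries the mean was 11.23 ± 0.49 in siRPL13 and 11.76 ± 0.12 in siNC (SD, n = 3 each), a difference of -0.53 ± 0.20 with an adjusted p of 0.589 (limma). The table holds 1 value per gene, so the spliced and unspliced forms of XBP1 mRNA, which encode an active factor and its short-lived counterpart, were not separated.

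HERPUD1 (chr16:56932048-56944863, plus strand) encodes an ER membrane protein with a ubiquitin-like domain that binds the HRD1 ligase complex. It stood at 11.16, 11.09 and 11.62 in siRPL13 and at 11.58, 11.83 and 11.73 in siNC. Its pattern was close to that of XBP1, with siRPL13 replicates 1 and 2 below all siNC libraries and the library labelled siRPL13 replicate 3 between siNC replicates 1 and 3. HERPUD1 fell by 0.59 ± 0.07 without that library, to 66.5% of siNC, with an adjusted p of 0.000716 (limma), and its difference was -0.42 ± 0.13 with all 6 libraries (adjusted p 0.589, limma). XBP1 and HERPUD1 passed under all 13 other settings tried on the 5 libraries, including each further library left out. In the fits with siRPL13 replicate 1 or 2 left out, 1 siRPL13 library stands against 3 siNC and is assumed to vary as they do. With siRPL13 replicate 1 left out the differences were -0.78 for XBP1 and -0.62 for HERPUD1.

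SYVN1 (HRD1), DERL1 and SEL1L form the membrane complex through which misfolded proteins leave the ER. SYVN1 (chr11:65121780-65134533, minus strand), its ubiquitin ligase, stood at 10.46, 10.54 and 10.76 in siRPL13 and at 10.70, 10.71 and 10.67 in siNC. Its lowest values were again those of siRPL13 replicates 1 and 2, and its highest value was that of the library labelled siRPL13 replicate 3. SYVN1 fell by 0.19 ± 0.05 without that library, to 87.9% of siNC (adjusted p 0.0339, limma). With all 6 libraries its difference was -0.10 ± 0.08 (adjusted p 0.684, limma). SEL1L (chr14:81471549-81533861, minus strand), the adaptor that stabilises the ligase, stood at 11.36, 11.36 and 11.19 in siRPL13 and at 11.43, 11.34 and 11.36 in siNC. Here siRPL13 replicates 1 and 2 lay within the siNC range and the library labelled siRPL13 replicate 3 lay below it. The difference of SEL1L was -0.02 ± 0.05, with an interval from -0.13 to 0.09 and an adjusted p of 0.819 (limma), and it was -0.08 ± 0.07 with all 6 libraries (adjusted p 0.708, limma). The ligase and its adaptor were not tested against each other. FAU on the same strand and MRPL49 on the opposite strand overlap 7.24% and 6.48% of the exon bases of SYVN1. The part of their reads in the SYVN1 values was not tested.

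DERL1 and EDEM1 were the 2 genes of the 10 whose 3 siRPL13 values all lay below the 3 siNC values, which 6.9% of all genes tested did. DERL1 (chr8:123013164-123042423, minus strand), a derlin that helps substrates cross the membrane, stood at 10.65, 10.74 and 10.78 in siRPL13 and at 10.93, 10.80 and 10.89 in siNC. The gap between its groups was small, with 10.78 in the library labelled siRPL13 replicate 3 next to 10.80 in siNC replicate 2. EDEM1 (chr3:5187646-5219957, plus strand), a mannosidase-related protein that directs glycoproteins to ERAD, stood at 11.37, 11.40 and 11.42 in siRPL13 and at 11.60, 11.54 and 11.60 in siNC. All 3 siRPL13 values of EDEM1 were close together, and the library in which RPL13 was not lowered did not stand apart. The difference of EDEM1 was thus about equal with all 6 libraries (-0.18 ± 0.05, adjusted p 0.589) and without that library (-0.19 ± 0.05, adjusted p 0.0229, limma). For DERL1 these were -0.15 ± 0.06 (adjusted p 0.589) and -0.19 ± 0.06 (adjusted p 0.0499, limma), the second at the edge of the threshold. TBC1D31 on the opposite strand shares 5.59% of the exon bases of DERL1, and AC026202.3 shares 9.66% of those of EDEM1.

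UFM1 (chr13:38349849-38363619, plus strand) was the 1 gene of the 10 that rose. The UFM1 protein is joined to targets that include a ribosomal protein at the ER membrane, RPL26, and UFM1 conjugation has been tied to ERAD and to the clearance of stalled ribosomes. UFM1 stood at 11.09, 11.02 and 10.78 in siRPL13 and at 10.85, 10.78 and 10.83 in siNC. The library labelled siRPL13 replicate 3 lay within the siNC range and the other siRPL13 libraries above it. UFM1 rose by 0.23 ± 0.05 without that library, to 117% of siNC (adjusted p 0.0131, limma), and its difference was 0.14 ± 0.08 with all 6 libraries (adjusted p 0.621, limma).

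The calls of SYVN1, DERL1, EDEM1 and UFM1 were not kept in each fit with a further library left out. Where that library is siRPL13 replicate 1 or 2, a single siRPL13 library remains, the spread comes from siNC alone and the standard error is larger, here and in the lists below. With siRPL13 replicate 1 left out, the differences of SYVN1, DERL1, EDEM1 and UFM1 were -0.15, -0.14, -0.17 and 0.20. With siRPL13 replicate 2 left out instead, they were -0.23, -0.23, -0.21 and 0.27 in the same order. Leaving out siNC replicate 3 gave adjusted p-values of 0.0595 for SYVN1, 0.113 for DERL1 and 0.0620 for EDEM1 (limma). Leaving out siNC replicate 2 gave 0.0585 for SYVN1, and leaving out siNC replicate 1 gave 0.0628 for DERL1 (limma). The direction of these 4 genes was the same in each of these fits. Over all 13 other settings on the 5 libraries, UFM1 passed in 11, EDEM1 in 8, SYVN1 in 7 and DERL1 in 4.

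**Figure D2:**
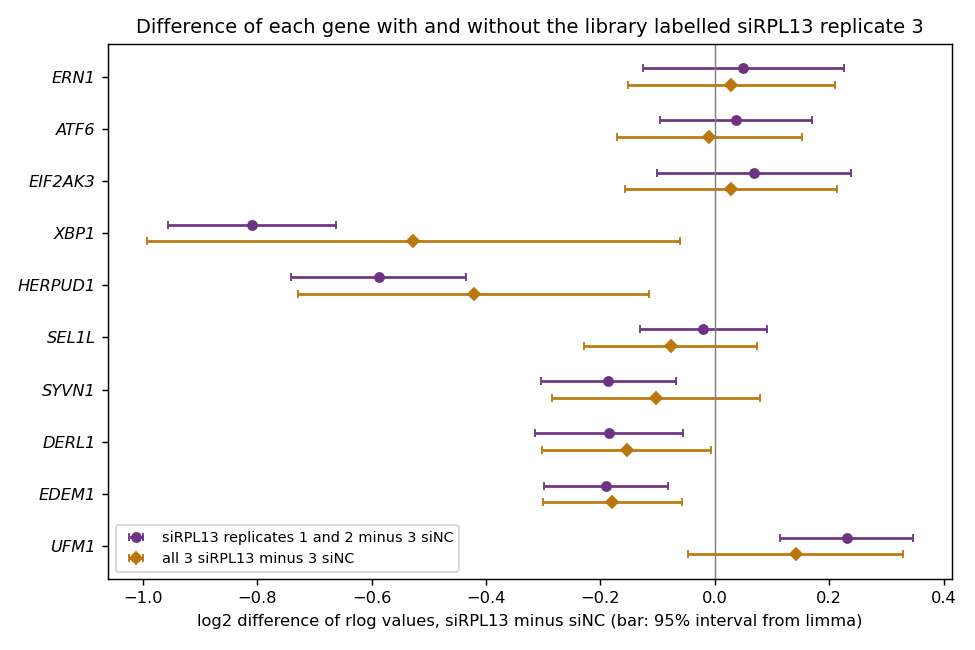
Difference of each of the 10 genes (horizontal axis, log2 of rlog values, siRPL13 minus siNC), with purple circles for siRPL13 replicates 1 and 2 against 3 siNC libraries, orange diamonds for all 3 siRPL13 against 3 siNC libraries and bars for the 95% interval from limma. The intervals of XBP1 run from -0.96 to -0.66 without the library labelled siRPL13 replicate 3 and from -0.99 to -0.06 with it, and those of the sensor genes include 0 in both.

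Levels of different genes were compared only per length, as the mean rlog value minus the log2 of the exon length in kb from GENCODE 29. On this scale XBP1 was highest at 9.90, followed by HERPUD1 at 9.14, UFM1 at 8.76, EDEM1 at 8.73, ATF6 at 8.37, SYVN1 at 8.18, SEL1L at 8.08, DERL1 at 7.97, EIF2AK3 at 6.88 and ERN1 at 5.23. The ranges over the 6 libraries overlapped between all neighbours in this order except EDEM1 and ATF6, DERL1 and EIF2AK3, and EIF2AK3 and ERN1. The IRE1 gene was thus the lowest of the sensor genes in every library, and its target XBP1 the highest of the 10 genes on average. The exon length counts every annotated exon once, so it overstates the transcript length of genes with many isoforms.

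For the 6 genes that passed without the library labelled siRPL13 replicate 3, the genes with the most similar profile over all 6 libraries were sought among the 12848 genes whose mean rlog was 5 or more. This is a description, and the closest of so many genes can be expected to correlate highly over 6 libraries. XBP1 was closest to RPL22L1, a paralog of a large-subunit protein, to DNASE2, a lysosomal nuclease, and to PDP2 (Pearson r of 0.999 for each). HERPUD1 was closest to ANKZF1 and UBAC2 (0.997 for each) and PLEKHO2 (0.993). SYVN1 was closest to CDKN2D (0.998), OTULIN and AP4B1 (0.997 for each), DERL1 to ZFAND2A-DT, DCTN5 (0.995 for each) and ATL1 (0.994), and EDEM1 to NIBAN1 (0.998), HLCS (0.992) and GNB1 (0.990). UFM1 was closest to the noncoding genes DUBR, WARS2-AS1 and RAP2C-AS1 (0.997 for each). For XBP1, HERPUD1, SYVN1 and UFM1 the libraries farthest from the median were siRPL13 replicates 1 and 2, and without these r lay between 0.959 and 0.990 over the other 4. The genes had been chosen by r over all 6 libraries, these 4 included, so the second r is not a separate check.

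The rest of the pathway was read from 7 lists of 109 genes in all, of which 102 were tested. Of the 92 tested genes other than the 10, 20 fell, 8 rose and 64 did not pass without the library labelled siRPL13 replicate 3, against 10.7% falling and 8.42% rising among all genes. With all 6 libraries 0 of the 92 passed. Differences of list genes below are without that library, and their values with all 6 libraries follow in each paragraph. These counts dropped to 2 lower and 2 higher with siRPL13 replicate 1 also left out, and to 6 and 4 with siRPL13 replicate 2 also left out.

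Among 17 tested genes of the sensors and their activation 5 fell and 1 rose (list median -0.08, log2). Of all genes tested, 10.7% fell and 8.42% rose. HSPA5, the chaperone BiP that holds the sensors inactive, stood at 14.33, 14.45 and 14.93 in siRPL13 and at 15.23, 15.09 and 15.00 in siNC. Its 3 siRPL13 values all lay below siNC, that of the library labelled siRPL13 replicate 3 by the least, and without that library it fell by 0.72 ± 0.07 (adjusted p 0.000283, limma). DNAJB9, a co-chaperone that represses IRE1, fell by 0.34 ± 0.07 (adjusted p 0.00670, limma), also with all 3 siRPL13 values below siNC. Such a separation below siNC was seen for 6.9% of all genes tested. CREB3, a relative of ATF6 that is also cut in the Golgi, rose by 0.26 ± 0.05 (adjusted p 0.00607, limma). Its 3 siRPL13 values all lay above siNC, as did those of 6.92% of all genes tested. ATF6B, the paralog of ATF6, lay between 3.53 and 3.74 in all libraries. Over all 6 libraries the differences were -0.54 for HSPA5, -0.25 for DNAJB9 and 0.20 for CREB3. With siRPL13 replicate 1 also left out, 2 genes of this list fell and 0 rose.

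In the PERK arm 3 of 13 tested genes fell and 1 rose (median -0.09), against 10.7% and 8.42% of all genes. CHAC1, an enzyme that breaks down glutathione, fell by 1.04 ± 0.26 (adjusted p 0.0185), TRIB3, a pseudokinase that represses ATF4, by 0.53 ± 0.14 (adjusted p 0.0234) and ATF4, the transcription factor of this arm, by 0.40 ± 0.09 (adjusted p 0.0142, limma). PPP1R15A, a subunit that targets a phosphatase to eIF2 alpha, rose by 0.55 ± 0.05 (adjusted p 0.000274, limma). It had all 3 siRPL13 values above siNC, as did 6.92% of all genes tested. The siNC libraries differed among themselves in this arm, and CHAC1 stood at 8.84, 8.86 and 10.03 in siRPL13 and at 9.15, 10.34 and 10.17 in siNC. DDIT3, the pro-apoptotic factor CHOP, stood at 9.47, 9.35 and 9.38 in siRPL13, inside the range of 9.13 to 9.56 in siNC. In the 6-library fit the differences were -0.64 for CHAC1, -0.36 for TRIB3, -0.25 for ATF4, 0.40 for PPP1R15A and 0.01 for DDIT3. The count of genes that fell was 0 with siRPL13 replicate 1 or 2 also left out and 1 with siNC replicate 3 left out.

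Of 15 tested genes of the HRD1 ligase complex 4 fell and 1 rose (median -0.12), against 10.7% and 8.42% of all genes. Those that fell were HERPUD1, SYVN1, DERL1 and UBAC2. AUP1, which brings the conjugating enzyme UBE2G2 to the ER membrane, rose by 0.29 ± 0.05 (adjusted p 0.00391, limma). It had all 3 siRPL13 values above siNC, as did 6.92% of all genes tested. When all 6 libraries entered, the differences were -0.12 for UBAC2 and 0.20 for AUP1. Of these calls only that of HERPUD1 among the lower genes was left with siRPL13 replicate 1, siRPL13 replicate 2 or siNC replicate 3 also left out.

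Among 15 tested genes of other ER ubiquitin ligases and their cofactors 3 fell and 1 rose (median -0.05), against 10.7% and 8.42% of all genes. ERLIN1, a scaffold of ER membrane ligases, fell by 0.23 ± 0.05 (adjusted p 0.0153) and the selenoprotein SELENOK by 0.22 ± 0.06 (adjusted p 0.0177, limma). UBE2J2, an ER-bound ubiquitin-conjugating enzyme, rose by 0.16 ± 0.05 (adjusted p 0.0450, limma). It had all 3 siRPL13 values above siNC, as did 6.92% of all genes tested. Over all 6 libraries the differences were -0.15 for ERLIN1, -0.14 for SELENOK and 0.12 for UBE2J2. With siRPL13 replicate 1 also left out 0 of these genes passed, and with siRPL13 replicate 2 also left out 1 did.

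The list of ERAD mannosidases and reductases had the most falls, 8 of 15 tested genes, with 1 rise and the lowest median (-0.19). Of all genes tested, 10.7% fell and 8.42% rose. DNAJB11, a co-chaperone of BiP, fell by 0.39 ± 0.05 (adjusted p 0.00120, limma), TXNDC11, a thioredoxin-domain partner of the EDEM proteins, by 0.31 ± 0.07 (adjusted p 0.0107) and DNAJB12, a membrane co-chaperone, by 0.26 ± 0.05 (adjusted p 0.00588, limma). EDEM1 was in this list, and of its relatives EDEM2 fell by 0.26 ± 0.05 (adjusted p 0.00997, limma) and EDEM3 had a difference of -0.01 ± 0.06. MAN1A2, a Golgi mannosidase, rose by 0.17 ± 0.05 (adjusted p 0.0416, limma). The library labelled siRPL13 replicate 3 lay above every siNC value for TXNDC11 (9.88) and EDEM2 (10.18). For MAN1A2 that library lay below every siNC value (11.73). In the 6-library fit the differences were -0.26 for DNAJB11, -0.16 for TXNDC11, -0.16 for DNAJB12, -0.14 for EDEM2, -0.01 for EDEM3 and 0.06 for MAN1A2. The library labelled siRPL13 replicate 3 had a list median of 0.01 relative to the siNC mean, against -0.19 and -0.17 in siRPL13 replicates 1 and 2. The 8 falls became 0 with siRPL13 replicate 1 also left out, 1 with siRPL13 replicate 2 and 5 with siNC replicate 3.

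Among 18 tested genes of extraction by VCP and delivery to the proteasome 2 fell and 1 rose (median -0.01), close to the shares of all genes (10.7% and 8.42%). VCP, the ATPase that pulls substrates from the membrane, stood at 14.57, 14.63 and 15.04 in siRPL13 and at 15.08, 15.01 and 15.06 in siNC. It fell by 0.45 ± 0.05 (adjusted p 0.000684, limma) without the library labelled siRPL13 replicate 3, which lay within the siNC range, and passed in all 13 other settings. NPLOC4, its adaptor, fell by 0.28 ± 0.05 (adjusted p 0.00345, limma). For NPLOC4 the library labelled siRPL13 replicate 3 (13.32) lay above the siNC values of 13.23, 13.22 and 13.18. When all 6 libraries entered, the differences were -0.30 for VCP and -0.15 for NPLOC4. With siRPL13 replicate 1 or 2 also left out, 1 gene fell and 0 rose.

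In the list of UFM1 conjugation 3 of 10 tested genes rose and 0 fell (median 0.09), against 8.42% and 10.7% of all genes. UFSP2, the protease that matures UFM1 and removes it from targets, stood at 9.16, 9.10 and 8.43 in siRPL13 and at 8.69, 8.44 and 8.55 in siNC. The library labelled siRPL13 replicate 3 was the lowest of the 6 for UFSP2, and the other siRPL13 libraries were the highest. Without it UFSP2 rose by 0.57 ± 0.08, to 148% of siNC (adjusted p 0.00158, limma), and passed in all 13 other settings. UFC1, the enzyme that conjugates UFM1, rose by 0.22 ± 0.06 (adjusted p 0.0217, limma). For UFC1 too the library labelled siRPL13 replicate 3 was the lowest, at 11.39 against 11.55, 11.47 and 11.62 in siNC. UFL1 and DDRGK1, which form the UFM1 ligase, had differences of 0.09 ± 0.08 and 0.09 ± 0.05 and did not pass. CDK5RAP3, the ligase cofactor, had -0.14 ± 0.05 and did not pass either. All 3 siRPL13 values lay above siNC for DDRGK1 (6.92% of all genes) and below siNC for CDK5RAP3 (6.9%). Over all 6 libraries the differences were 0.34 for UFSP2, 0.09 for UFC1, 0.07 for UFL1, 0.10 for DDRGK1 and -0.10 for CDK5RAP3. With siRPL13 replicate 1 or 2 also left out, 1 gene of the list rose, and with siNC replicate 1 left out 4 rose and 1 fell.

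**Figure D3:**
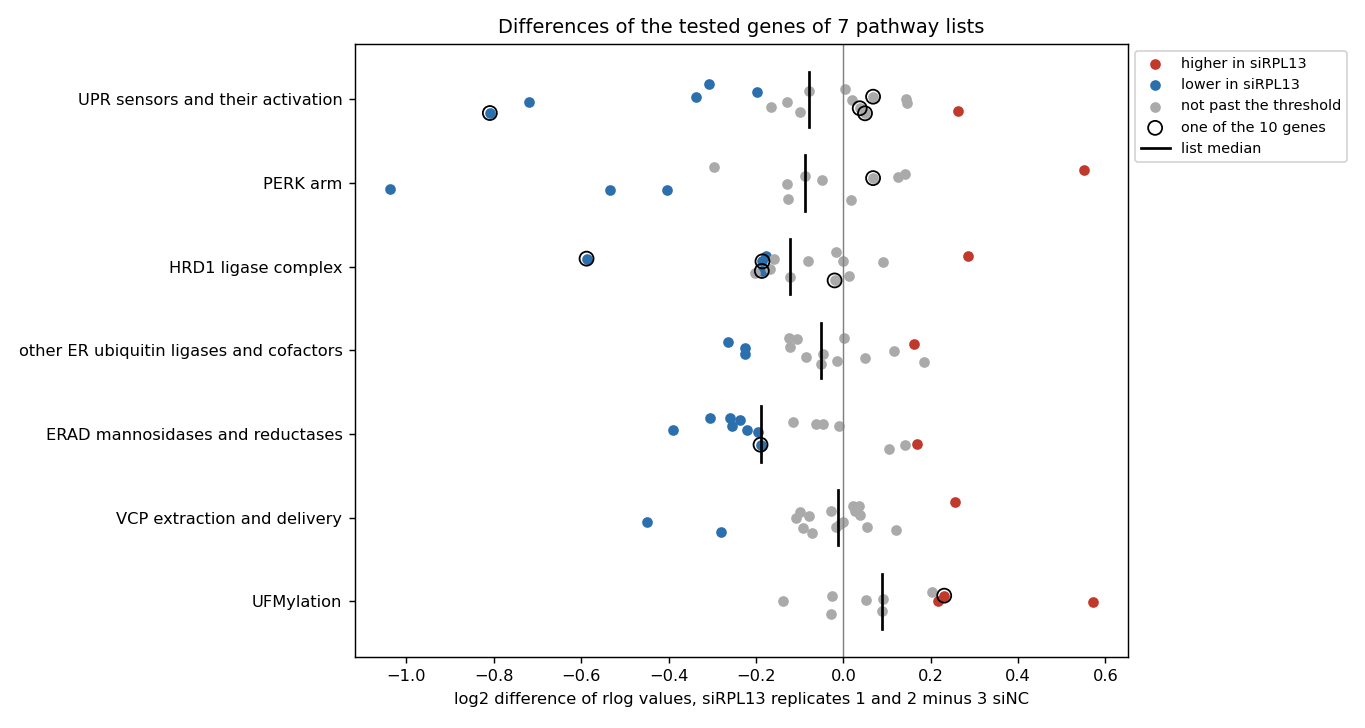
Difference of each tested gene of the 7 lists (horizontal axis, log2 of rlog values, siRPL13 replicates 1 and 2 minus 3 siNC), with genes that rose in red, genes that fell in blue, others in grey, rings around the 10 genes and a black line at the list median. XBP1, HSPA5 and CHAC1 lie farthest left at -0.81, -0.72 and -1.04, and UFSP2 and PPP1R15A farthest right at 0.57 and 0.55.

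**Figure D4:**
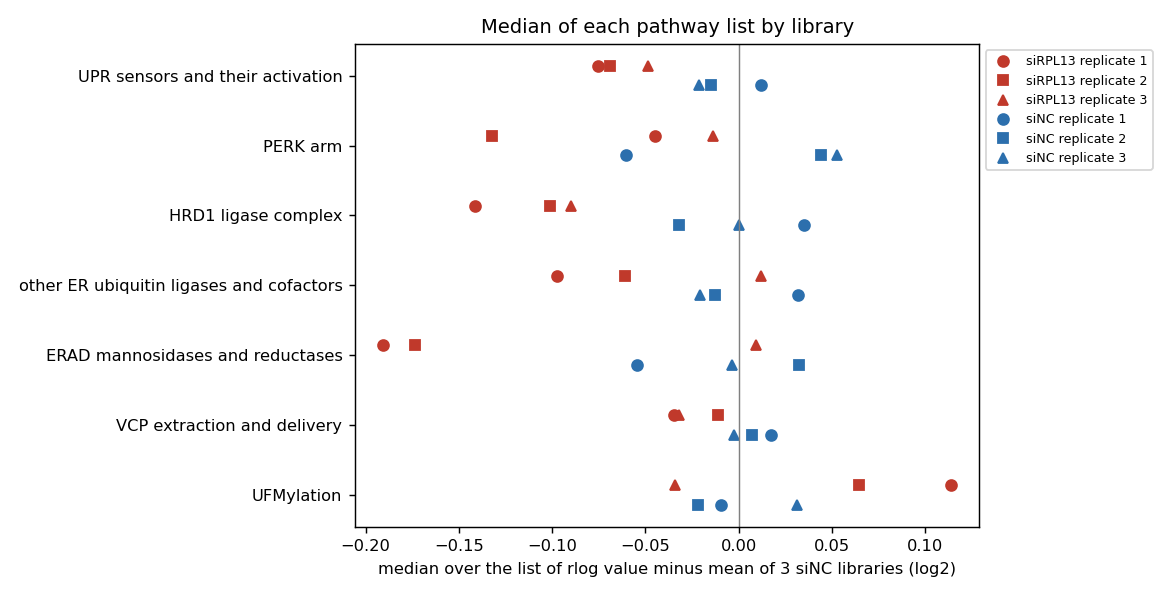
List medians (horizontal axis, log2) of rlog values taken relative to the siNC mean of each gene, with 1 point per library, siRPL13 in red and siNC in blue, the shape giving the replicate number. For the HRD1 ligase complex all 3 siRPL13 libraries lie at -0.09 or lower and all siNC libraries at -0.03 or higher, while for ERAD mannosidases and for UFMylation the library labelled siRPL13 replicate 3 lies among or next to the siNC libraries.

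The list medians differed in where the library labelled siRPL13 replicate 3 lay. For the HRD1 ligase complex they were -0.14, -0.10 and -0.09 in siRPL13 replicates 1 to 3, against 0.03, -0.03 and 0.00 in siNC. By this median the library in which RPL13 was not lowered lay with its group, but not gene by gene. Relative to the siNC mean, SEL1L was at -0.02, -0.02 and -0.19 in siRPL13 replicates 1 to 3 and SYVN1 at -0.23, -0.15 and 0.07. The medians of the sensors and their activation were -0.08, -0.07 and -0.05 in siRPL13, against 0.01, -0.01 and -0.02 in siNC. In the list of UFM1 conjugation the medians were 0.11, 0.06 and -0.03 in siRPL13, against -0.01, -0.02 and 0.03 in siNC. There the library labelled siRPL13 replicate 3 lay apart from its group. What sets the library labelled siRPL13 replicate 3 apart was not tested.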

How the data were processed

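Total RNA of 6 cultures was sequenced, 3 per group, from 1.5 µg per library with a NEBNext Ultra kit, per the labels' protocols; each electroporation held 2.5 µL of siRNA at 20 µM. The deposited table holds log2-scale values, named rlog by the authors in its title. Per the submitters' processing notes, DESeq2, HTSeq 0.6.1p1, TopHat, Trimmomatic 0.33 and the build GRCh38.p7 were used, with no roles or settings given. Symbols came from a table of current names (20499 of 21429 identifiers) and from GENCODE 29 (20608). Genes whose mean rlog was 3 or more were tested with limma 3.58.1 in R 4.3.3 (two-sided moderated test with an intensity trend in eBayes, Benjamini-Hochberg over 15327 genes, threshold 0.05). No count model was used and no counting interval can be given, since depth is unknown. The test was checked on simulated data drawn with the spread between the 5 libraries. The check therefore does not cover the spread that the library labelled siRPL13 replicate 3 adds to the fit of 6 libraries. The 10 genes, the lists and the comparison without the library labelled siRPL13 replicate 3 were chosen with earlier results of these data known. From each list up to 3 genes per direction with the largest called difference are named (some are not reported here), and for each of the 10 genes that passed the 3 genes with the highest Pearson r; UBAC2 is named to complete a count. ATF6B, CDH5, MAP2, DDIT3, EDEM2, EDEM3, UFL1, DDRGK1 and CDK5RAP3 were chosen after their values were seen. Alternatives were filters, scalings, variance models, library weights, a replicate block and each library left out. No pair of libraries shared an identical value over the genes tested (0). The p-values rest on the spread between these libraries, which may be technical. Figures were drawn with matplotlib 3.10.9.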

Additional observations from a re-analysis of the deposited data

How the results depend on the processing

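With all 6 libraries, 0 of the 10 genes, 0 other pathway genes and 0 of all genes passed under every setting except library weights and the omission of the library labelled siRPL13 replicate 3. Library weights (0.163 for the library labelled siRPL13 replicate 3 and 7.19 for replicate 2 of that group, from a fit that stopped before full convergence) gave 1 higher and 5 lower of the 10 genes, 13 higher and 30 lower of the other 92 pathway genes, and 2601 higher and 2708 lower of all genes. Leaving out 1 library gave 0 to 1 higher and 0 to 5 lower of the 10 genes, 0 to 8 higher and 0 to 20 lower other pathway genes, and 0 to 1291 higher and 0 to 1642 lower genes in all. Without the library labelled siRPL13 replicate 3, 5 of the 10 genes were lower, and this became 3 with no filter, 3 with quantile scaling and 2 with the replicate block. Leaving out 1 further library gave 0 to 1 higher and 2 to 4 lower of the 10 genes, 2 to 10 higher and 2 to 24 lower other pathway genes, and 102 to 1734 higher and 141 to 2014 lower of all genes (1291 and 1642 before). Library weights gave 2007 higher genes in all. The counts of other pathway genes under other settings were added after the data had been seen. Whether the replicate numbers pair the libraries is unknown. Same-numbered deviations from the group means correlated at 0.084, -0.43 and -0.33 over genes, and differently numbered ones at -0.38 to 0.45. The siRPL13 deviations carry the difference of the library labelled siRPL13 replicate 3 from the others, so these correlations cannot decide on pairing. The block left 0 calls with 6 libraries and with 5, where it leaves 1 residual degree of freedom, SYVN1, DERL1 and EDEM1 no longer passed (adjusted p 0.0533, 0.0890 and 0.0681, limma; over all settings 0.0156 to 0.358, 0.0168 to 0.412 and 0.00561 to 0.259). The sign of genes that did not pass changed in places. With 6 libraries ATF6 was 0.0125 with quantile scaling and 0.0855 with library weights and ranged from -0.0581 to 0.0376 over omitted libraries, ERN1 from -0.0240 to 0.0936 and EIF2AK3 from -0.0321 to 0.0796. With 5 libraries SEL1L was 0.0170 with quantile scaling and ranged from -0.0361 to 0.0056 over further omitted libraries, ERN1 from -0.0030 to 0.1145, ATF6 from -0.0125 to 0.0876 and EIF2AK3 from -0.0126 to 0.1487. The cause of these changes was not tested. The direction of XBP1, HERPUD1, SYVN1, DERL1, EDEM1 and UFM1 was the same under every setting run.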
